A study of Caenorhabditis elegans with 4 samples.

Results

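The combined EFL-1 peaks on chromosome II of Caenorhabditis elegans are the 831 lines of the authors' combined ChIP-seq peak list that carry this chromosome name, out of 4966 lines in all (16.7%). They were chosen by chromosome alone, whatever their strength. Chromatin immunoprecipitation with sequencing (ChIP-seq) was done on L1 larvae, the first larval stage, of strain MT10430, hermaphrodites of genotype lin-35(n745), and every animal studied carried this mutation. The 2 EFL-1 ChIP samples were made with a rabbit polyclonal antibody against EFL-1, and each had 1 input sample (2 in all) of total chromatin DNA saved before the precipitation. Growth was at 20 °C on E. coli HB101 per the protocol, although the stage label carries the tag 26dC. No animals with intact lin-35, no second antibody and no second stage were among the samples, and all animals were whole larvae, so binding in single tissues was not resolved. Whether the replicates came from separate cultures is not stated, so their spread may reflect technical repeats only.

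EFL-1 is a worm transcription factor of the E2F family. It binds DNA together with its partner DPL-1, and with the retinoblastoma homologue LIN-35 and further proteins it forms a complex (DRM in the worm, DREAM in mammals) that represses genes of the cell cycle and of the germ line. Worm autosomes have a central region rich in genes, where recombination is low, flanked by arms with more repeats and more recombination. Worm chromosomes are holocentric, so the centre is not a centromere.

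The 3 peak lists in WormBase WS220 coordinates that were read are the combined list and 1 list per ChIP replicate. On chromosome II they held 831 combined peaks, 3550 peaks in replicate 1 (15.9% of its list) and 3618 in replicate 2 (16.1%). Each peak has a number in its name, which served as the authors' rank, 1 being the strongest; the combined list gives all peaks 1 score. In the replicate lists the score is tied at its top value over 5002 peaks of replicate 1 and 3810 of replicate 2, 827 and 652 of them on chromosome II. Differences in rank among peaks so tied therefore have no difference in score behind them. Reads, enrichment folds and depths are not part of these lists, so depth was unknown. A site's strength is known only as a rank, and the error of that rank is unknown. Genes and sequences at the sites were not analysed here, because the gene table at hand is of another assembly (WBcel235).

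The strongest EFL-1 sites on chromosome II had low numbers in both replicates, and the first of them lay outside the middle of the chromosome. They were picked by combined number, from a list made from these samples, so low numbers in both are no separate evidence. Of the 10 strongest, 4 lay in the left part of the chromosome, 0 in the middle part and 6 in the right part, each part being 5.09 Mb long. Of these, 5 lay within 1 Mb of a border of the middle part, and with a wider centre, from 5 to 12 Mb, 3 of the 10 fell inside it. Site 1, the strongest of the whole list, ran from 216540 to 217002; its replicate 1 peak ran from 216566 to 216983 and its replicate 2 peak from 216554 to 216988. Site 2 ran from 14383551 to 14383976, and the replicate peaks ran from 14383570 to 14383950 and from 14383564 to 14383949. Both replicates thus placed these sites at almost the same bases, with centres 3.5 bp apart at each site.

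Sites 5, 7 and 9 completed the chromosome's part of the genome's 10 strongest. Site 5, from 10563313 to 10563720, had replicate centres 4.0 bp apart. Site 7, from 4739951 to 4740380, was number 4 in replicate 1 and 12 in replicate 2, with centres 1.0 bp apart. Site 9, from 15010369 to 15010766, was number 20 in replicate 1 and 9 in replicate 2, with centres 14.5 bp apart, the widest distance among the 10.

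The next 5 sites on the chromosome followed. Site 11, from 14441046 to 14441451, was number 3 in replicate 1 and 20 in replicate 2. Site 13, from 4999157 to 4999557, was number 8 and number 16 in the same order of replicates. Site 19, from 10798440 to 10798813, was number 13 in replicate 1 and 31 in replicate 2. These 3 sites ranked higher in replicate 1, and for site 11 the replicate numbers differed 6.67-fold, the most among the 25 strongest sites of the chromosome. Site 21, from 385937 to 386338, was number 23 in replicate 1 and 24 in replicate 2. Site 27, from 11021975 to 11022359, was number 34 in replicate 1 and 27 in replicate 2. Site 21 was thus nearly equal in both, and site 27 ranked slightly higher in replicate 2.

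**Figure D1:**
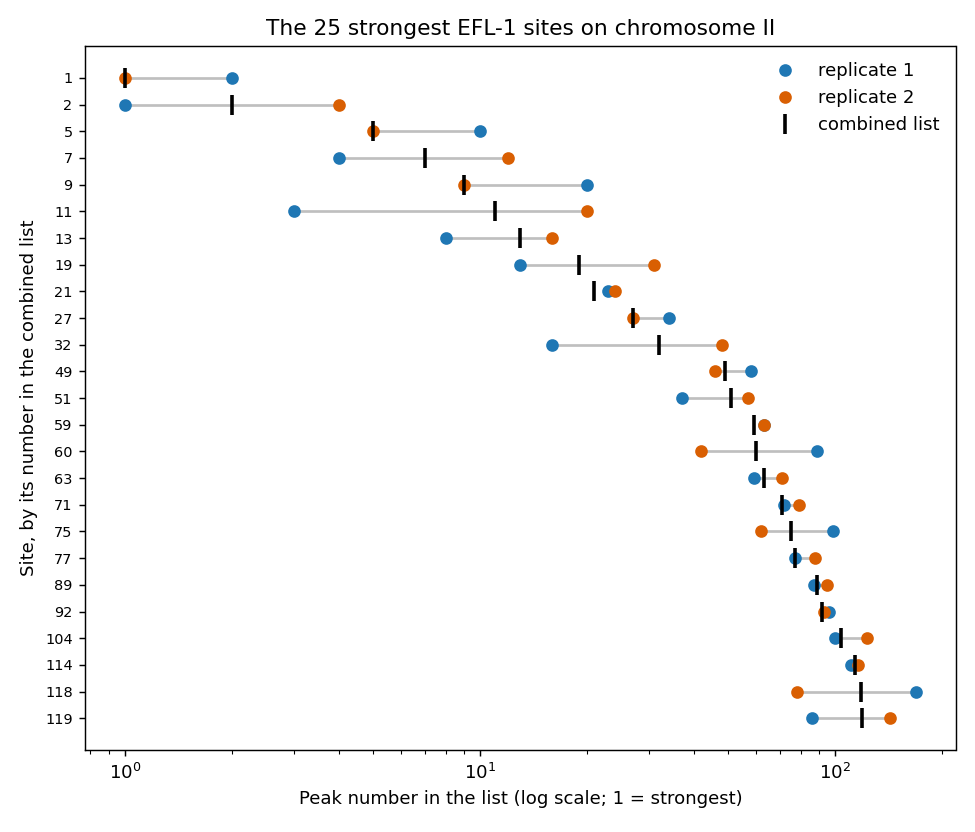
Peak numbers (log scale, 1 being the strongest) of the 25 strongest chromosome II sites, 1 row per site named by its combined number, with blue points for replicate 1, orange points for replicate 2 and a black bar for the combined list. All 25 stayed within the first 169 peaks of replicate 1 and the first 143 of replicate 2, and the combined number lies between or near the replicate numbers. The sites were picked by combined number, from a list made from these samples.

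Among these 25 sites, 15 ranked higher in replicate 1, 9 ranked higher in replicate 2 and 1 had the same number in both. Neither replicate gave the higher rank at all of these sites. All 25 were tied at the top score in both replicates, so no difference in score lies behind these ranks. Replicate centres were a median 4.0 bp apart, from 0.0 to 14.5 bp. Their widths ran from 315 to 463 bp, and all 25 had a single partner peak in each replicate. By position, 8 lay in the left part, 4 in the middle part and 13 in the right part.

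Several of the strongest sites were neighbours. A stretch of 195 kb at the left end, from 216540 to 411209, held 4 of the 25 strongest (sites 1, 60, 21 and 118) among 11 combined peaks. At the right end, a stretch of 96.6 kb from 14383551 to 14480161 held 3 of them (sites 2, 11 and 104) among 13 combined peaks. Another stretch, 260 kb long, from 4739951 to 4999557, held sites 7, 89 and 13 among 22 combined peaks. The stretches were picked after the positions were seen, as sites no more than 200 kb apart from start to start, and no test was made of them.

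Chromosome II held 5 of the 10 strongest combined peaks, a count known before this work and given with no test, and peaks 11 to 100, a range added after the counts were seen, held 16 of its sites (ratio 1.07, exact 95% interval 0.63 to 1.64, two-sided exact binomial p = 0.777). With the first 10 included, it held 21 of the 100 strongest peaks, against 16.6% of the other 4866 (ratio 1.26, exact 95% interval 0.81 to 1.82, two-sided exact binomial p = 0.229). By each replicate's own numbers it held 24 of the 100 strongest in replicate 1 (ratio 1.47, p = 0.0569) and 22 in replicate 2 (ratio 1.31, p = 0.18), both by the same exact test. Among the 1000 strongest it held 168 combined peaks (16.8%), 170 in replicate 1 and 165 in replicate 2. From there to the end of the combined list its share of each successive 1000 peaks lay between 15.8% and 17.5%.

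Along the chromosome, peaks were sparse at the left end and dense elsewhere. Cut into 3 equal parts of 5.09 Mb over an extent of 15.27 Mb (the highest peak end in any list), the chromosome held 201 combined peaks in the left part (39.5 per Mb), 323 in the middle part (63.4 per Mb) and 307 in the right part (60.3 per Mb). An even spread would give 277 in each. The left part thus held 0.73 times that number (exact 95% interval 0.64 to 0.82), the middle part 1.17 times (1.07 to 1.27) and the right part 1.11 times (1.01 to 1.21). These intervals, and the exact p-values below, cover counting error only and treat peaks as independent, although neighbouring peaks are not, so the p-values may be too small.

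The middle part held more peaks than an even spread gives (two-sided exact binomial p = 0.000807). The excess was not particular to chromosome II. Its middle part held 38.9% of its peaks, against 38.4% of the peaks of all chromosomes and 38.4% of the 4135 peaks on the other chromosomes (Fisher's exact test, adjusted p = 0.941 over 6 chromosomes). Among stronger peaks the call did not hold. Among the 2483 strongest combined peaks the middle part of chromosome II held 149, a ratio of 1.04 (exact binomial p = 0.538). Among the 1000 strongest it held 51 of the 168 on the chromosome, below an even share (ratio 0.91, exact 95% interval 0.71 to 1.14, exact binomial p = 0.462). The call was also lost when peaks with gaps of up to 10 kb were counted once (ratio 1.12, exact binomial p = 0.103).

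The left part held fewer peaks than the right part in each of the 3 lists. The ratio of left to right was 0.65 in the combined list (201 against 307 peaks, exact 95% interval 0.55 to 0.78, two-sided exact binomial p = 2.94e-06). Among the 4966 strongest peaks of each replicate it was 0.67 in replicate 1 (199 against 298) and 0.61 in replicate 2 (193 against 315). On the other chromosomes together it was 1.03 (1293 against 1256 peaks). Chromosome II differed from them with an odds ratio of 0.64 (95% interval 0.52 to 0.77, Fisher's exact test, adjusted p = 2.81e-05 over 6 chromosomes), a comparison added after the counts were seen. Chromosome III also held fewer peaks on the left than on the right (269 and 332), chromosomes IV (298 and 223) and V (234 and 197) held fewer on the right, and each of these 3 differed from the rest in Fisher's exact test (adjusted p = 0.0386, 0.000102 and 0.0335). When peaks with gaps of up to 10 kb were counted once, 116 remained on the left and 139 on the right (ratio 0.83, exact binomial p = 0.168), and chromosome II no longer differed from the rest (odds ratio 0.80, Fisher's exact adjusted p = 0.348). By its making, such merging takes away most where sites are close together. Why the difference was lost was not tested.

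**Figure D2:**
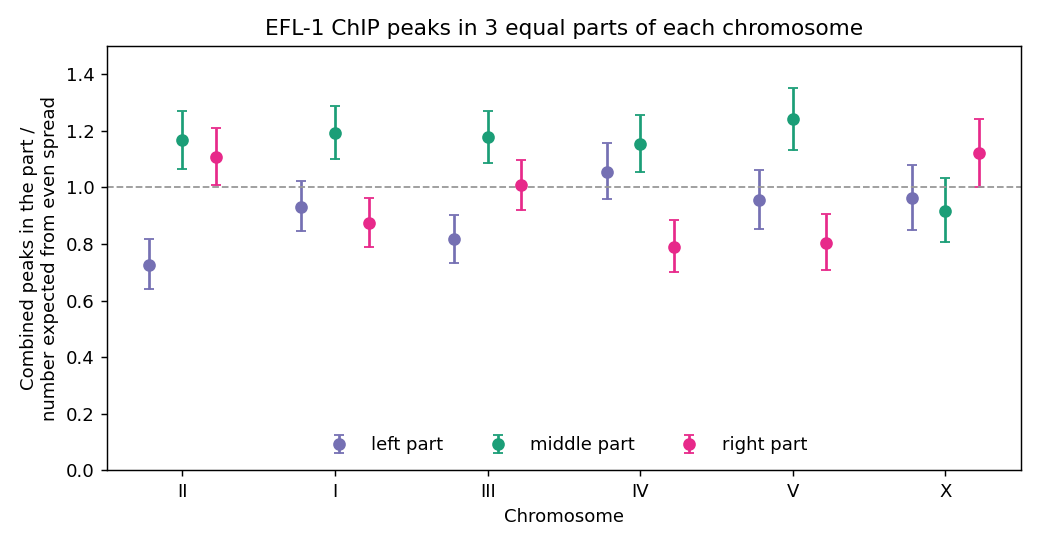
Combined peaks in the left, middle and right part of each chromosome, divided by the number an even spread over the 3 parts would give (dashed line at 1), with exact 95% intervals over peaks. The left part of chromosome II, at 0.73, is the lowest point of the 18, while its middle part, at 1.17, lies among those of the other autosomes.

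For finer steps, the chromosome was cut into 10 bins of 1.53 Mb, numbered from the left, and the count was higher from bin 4 on. Bins 1 to 3 held 60, 49 and 50 combined peaks, and bin 4 held 112. The other bins held between 73 and 109 peaks, the lowest of these being bin 9. Bin by bin, the strongest 4966 peaks of each replicate gave counts that differed by 1 to 12 peaks between replicates, less than the step from bin 3 to bin 4 (49 and 116 in replicate 1, 46 and 107 in replicate 2). The full replicate lists, most of whose peaks are weak, had the same step, although bins 1 to 3 were set apart after the counts were seen. In replicate 1 bins 1 to 3 held 239 to 271 peaks and the other 7 bins held 343 to 448. In replicate 2 they held 242 to 286 and 321 to 467 peaks. The ranges did not overlap in either replicate, which is no separate check, because the combined list was made from the same samples.

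**Figure D3:**
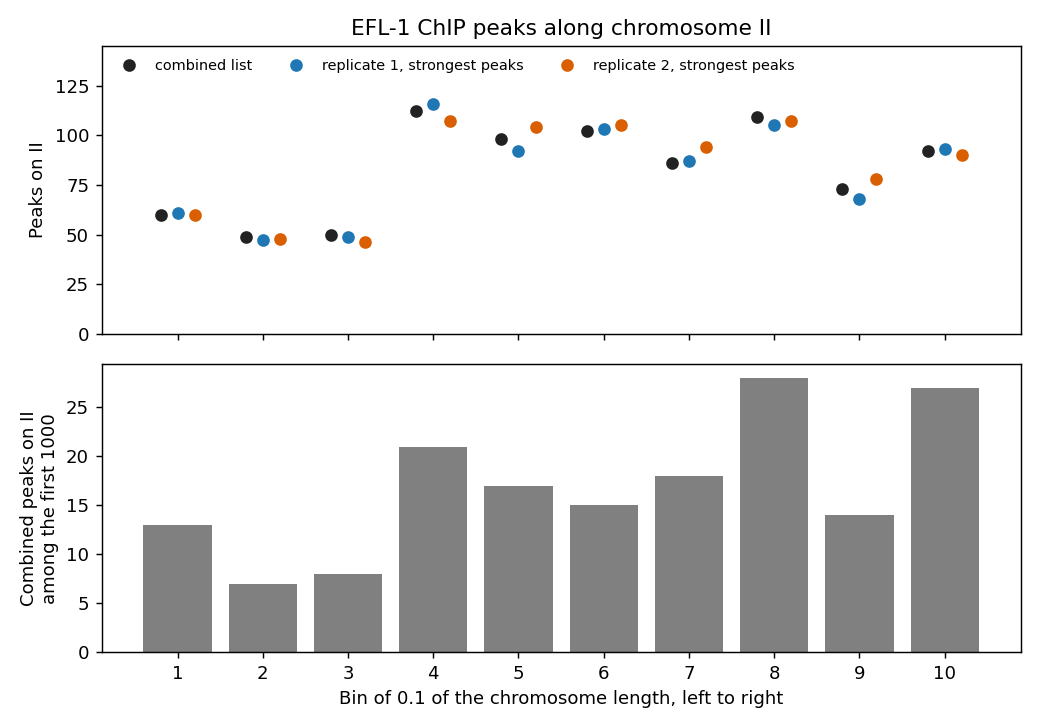
Peaks on chromosome II in 10 equal bins of its length, from left to right. In the upper panel, black points are combined peaks and blue and orange points are the 4966 strongest peaks of replicates 1 and 2, with bins 1 to 3 lowest in each list. In the lower panel, bars are the combined peaks among the genome's first 1000, which are most in bins 8 (28) and 10 (27).

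The part with most peaks was not the part with the largest share of strong ones. The share of sites among the genome's first 1000 was 19.4% in the left part (39 of 201, exact 95% interval 14.2 to 25.6%), 15.8% in the middle part (51 of 323, 11.99 to 20.2%) and 25.41% in the right part (78 of 307, 20.6 to 30.7%). The interval of the right part did not overlap that of the middle part, and both overlapped that of the left part. The space between them was narrow (20.6 against 20.2%), and the intervals treat peaks as independent. The difference itself was not tested. Median combined numbers were 2437 on the left, 2640 in the middle and 2182 on the right. Of the 21 sites among the genome's first 100, 7 lay on the left, 4 in the middle and 10 on the right. Among the first 1000 peaks the left-to-right ratio was 0.50 in the combined list, 0.49 in replicate 1 and 0.48 in replicate 2, and in the later steps of 1000 combined peaks it lay between 0.64 and 0.75.

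Some sites on chromosome II stood in groups, in a share near that of all chromosomes. Grouping was not tested against an even spread. Over 819 merged sites the median gap to the next was 9.91 kb, with quartiles of 3.002 and 24.9 kb, and 284 gaps (34.7%) were at most 5 kb. Runs of at least 3 peaks with such gaps numbered 63 and held 237 of the 831 peaks (28.5%, against 26.7% of combined peaks on all chromosomes). Overlapping peaks counted as separate members of a run. There were 34 runs of 3 peaks, 17 of 4, 6 of 5, 5 of 6 and 1 of 7, with a median length of 6.61 kb. Of the runs, 14 lay on the left, 22 in the middle and 27 on the right. Chromosome II had 4.12 runs per Mb, between the densest chromosome, III (6.17), and the sparsest, X (1.69), and the order of the 6 chromosomes by runs was their order by peaks per Mb.

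The run with most peaks held 7 in 14.9 kb, from 10548835 to 10563720, and it ended at site 5. Its other members were, from left to right, sites 862, 4530, 468, 2659, 4306 and 2516, so that strong and weak sites were mixed in it. Site 468, from 10551953 to 10552254, was number 401 in replicate 1 and 520 in replicate 2. Site 862, from 10548835 to 10549103, was number 861 in replicate 1 and 797 in replicate 2. In the same stretch replicate 1 had 18 peaks and replicate 2 had 20.

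**Figure D4:**
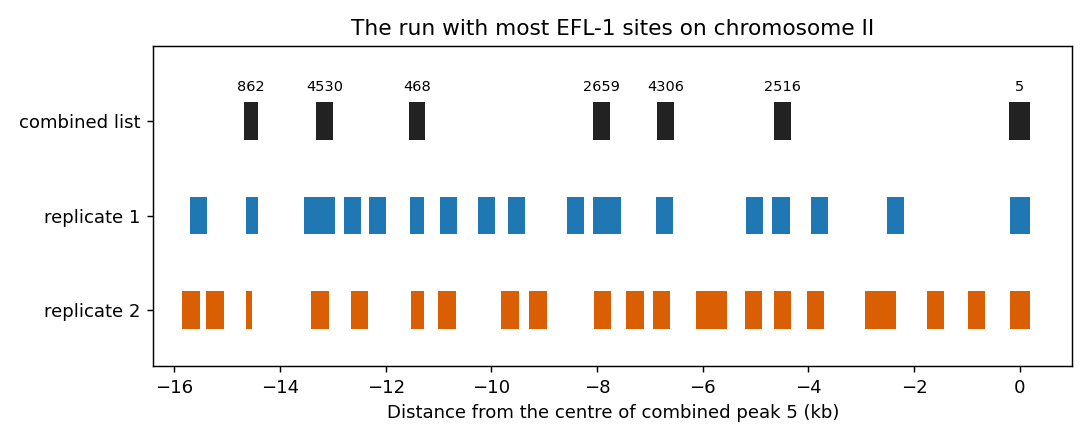
Peaks of the combined list (black, with their numbers), replicate 1 (blue) and replicate 2 (orange) in the run of 7 sites, as distance in kb from the centre of combined peak 5. Each of the 7 combined sites has a peak in both replicates, and many further replicate peaks lie between them.

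Of the 5 runs of 6 peaks, those with the lowest peak numbers follow. The run from 2962589 to 2977021, in the sparse left part, had site 200 as its strongest member (number 281 in replicate 1, number 142 in replicate 2), with sites 1330, 3062, 3152, 4196 and 4438 beside it. The run from 13193485 to 13203076 held site 236 (number 301 in replicate 1, 187 in replicate 2) and sites 1101, 2276, 3930, 4680 and 4965. Its sites 236 and 3930 have the same coordinates, 13199621 to 13200077, so this run holds 5 separate positions. Sites in runs were not stronger as a group. Their median combined number was 2856, against 2314 for the 594 sites outside runs, while 22.4% and 19.4% of them were among the genome's first 1000.

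The 3 longest stretches without a combined peak lay in the left part. They ran from 1520241 to 1736491 (216 kb), from 2059295 to 2195578 (136 kb) and from 941150 to 1070403 (129 kb). None of them lacked replicate peaks. The first held the centres of 10 replicate 1 peaks and 22 replicate 2 peaks, the strongest being numbers 5670 and 9407. The second held 28 and 23 (strongest 6859 and 5696), and the third held 4 and 8 (strongest 4572 and 5523). The second stretch had 205 replicate 1 and 169 replicate 2 peaks per Mb, against 232 and 237 per Mb on the whole chromosome. In both other stretches replicate peaks were sparser, at 46.2 and 30.9 per Mb in replicate 1 and 102 and 61.9 per Mb in replicate 2.

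Of the 831 chromosome II sites, 828 overlapped a peak in both replicates (99.6%, exact 95% interval 98.9 to 99.9%), against 99.6% of all combined peaks. Since the combined list was made from these samples, such shares follow from its making and are no separate evidence. Among the strongest 4966 peaks of both replicates were 713 sites (85.8%, against 83.4% of all combined peaks). Every site with a combined number up to 3000, 514 in all, was in this class. Of the 153 sites numbered from 4001 on, 46 were (30.1%). The share of these weaker sites over all chromosomes is not given here.

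**Figure D5:**
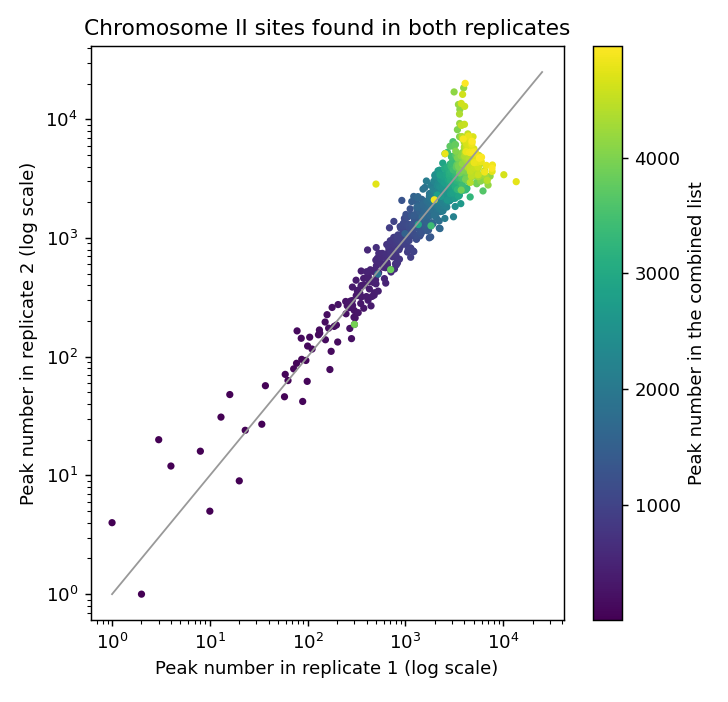
Peak number in replicate 1 (x axis) and replicate 2 (y axis), both on log scales, of the 828 chromosome II sites found in both, coloured by combined number; the line marks equal numbers. Points lie nearest the line at combined numbers 1001 to 3000. Replicate numbers differed more than 2-fold at 5.36% of sites numbered 1 to 1000, site 11 (3 and 20) among them. The share was 0.58% for sites 1001 to 2000, 0.57% for sites 2001 to 3000 and 15.2% from 4001 on. Above about the combined number 4000 the points fan out, mostly towards high numbers in replicate 2.

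Replicate centres lay a median 13.0 bp apart over the 733 sites with 1 partner in each replicate. The distance was 5.5 bp for sites among the first 1000 and 29.0 bp for those numbered from 4001 on. Positions were thus closest where peaks were strongest. Several partners were found for 61 sites in replicate 1 and for 61 in replicate 2, and the strongest of them gave the site's number. On the other chromosomes the median was also 13.0 bp.

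In all, 3 sites lacked a partner in 1 replicate, all of them weak by combined number. By score, the replicate 1 peaks of sites 3897 and 4927 were still tied at the top value of that list. Site 4935, from 940820 to 941149, was number 5981 in replicate 2, and the nearest replicate 1 peak was 9222 bp away. Site 3897, from 7598892 to 7599221, was number 3221 in replicate 1, and the nearest replicate 2 peak was 3155 bp away. Site 4927, from 9214445 to 9214774, was number 4029 in replicate 1, with the nearest replicate 2 peak 2376 bp away. Without reads, a peak missed by the caller and a site not bound in that sample cannot be told apart. A further 11 sites were found in both but ranked below 10000 in one, 9 of them in replicate 2 and 2 in replicate 1. Site 4128, from 12050531 to 12050860, had the highest ratio of replicate numbers among them, at number 3146 in replicate 1 and 16998 in replicate 2. Site 4965 stood furthest apart in numbers, at 4084 and 20078. At both sites the replicate 1 peak had that list's top score and the replicate 2 peak scored below its list's top. How many sites on the other chromosomes ranked so low in a replicate is not given here.

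Conversely, most replicate peaks on chromosome II had no combined counterpart. In replicate 1, 866 of 3550 peaks overlapped a combined peak (24.4%), and in replicate 2 so did 866 of 3618 (23.9%). Over all chromosomes the combined list has 4966 peaks, against 22275 in replicate 1 and 22464 in replicate 2. Low shares thus go with the list sizes and are not read as particular to chromosome II. The shares over all chromosomes are not given here. Those with the lowest numbers were all included. The first 611 chromosome II peaks of replicate 1 and the first 500 of replicate 2 each overlapped a combined peak. The first without one was number 3609 in replicate 1, from 8745121 to 8745444, and number 2897 in replicate 2, from 10542458 to 10542787. Neither overlapped a peak of the other replicate.

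Widths on chromosome II varied at strong sites and were mostly fixed at weak ones. The 21 sites among the genome's first 100 had a median width of 383 bp (315 to 463 bp). Sites 1001 to 2000 had a median of 185 bp, and from site 2001 on the median was 330 bp. A fixed width of 330 bp was held by 421 of the 831 sites (50.7%, against 52.8% of all combined peaks), among them 0 of the first 1000 and 148 of the 153 weakest. At 2 positions the list gave the same interval under a pair of numbers. One was 5543370 to 5543870 (sites 486 and 1897), where replicate 1 had separate peaks numbered 523 and 1946 and replicate 2 had peaks numbered 497 and 1626. The other was the pair of sites 236 and 3930. There, both peaks of each replicate covered nearly the same bases, under numbers 301 and 3037 in replicate 1 and 187 and 2649 in replicate 2.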

How the data were processed

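Peaks were called by the authors with SPP and the irreproducible discovery rate (IDR) procedure on WormBase build WS220, per the file headers and each line's source field. For versions, thresholds, aligner and the method of combining lists, the entry is: not given in the sources used here. The score that the authors deposited has no stated unit and gave no values here; order was taken from the number in each peak's name. Replicates 1 and 2 follow the sample titles, whereas the names of their peak lists say replicate 2 and replicate 3. Input samples were not analysed here.

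Chromosome II peaks were taken by chromosome name, and peaks of different lists were matched when they overlapped by at least 1 bp; of several partners the strongest was used. The 3 parts and 10 bins of the chromosome were filled by peak centre. Two-sided exact binomial tests, Fisher's exact tests (Benjamini-Hochberg over 6 chromosomes) and Clopper-Pearson 95% intervals used scipy 1.17.1 under Python 3.11.15. The position tests were tried on simulated positions drawn independently of each other. That trial does not cover neighbouring peaks that are not independent, as in these data. The 10 strongest sites, the 3 largest runs, the 3 longest empty stretches, sites missing from a replicate and strong replicate peaks (numbers up to 50) outside the list, of which there were 0, were named by rule; stretches of strong sites, repeated intervals, the widest split and sites beyond the rule were named after their values were seen. Members and tests were chosen with earlier results of these data known. Planned comparisons with gene starts, gene lists and E2F motifs were not run, as the annotation is of another assembly.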

Additional observations from a re-analysis of the deposited data

How the results depend on the processing

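The 1000 strongest combined peaks and peaks 11 to 100 were added as alternatives after the data were seen. The middle-part ratio on chromosome II (1.17) lost its call among the stronger 50% of the combined list (1.04) and when peaks with gaps of up to 10 kb were counted once (1.12), and it turned round among the 1000 strongest (0.91). The ratio kept its call with a centre from 5 to 12 Mb (1.21), with the middle 50% as centre (1.13) and with overlapping peaks merged (1.16). The left-to-right ratio (0.65) lost its call only with gaps of up to 10 kb counted once (0.83). Its other alternatives ran from 0.50 to 0.71. The 0.71, with a centre from 5 to 12 Mb, is a ratio of peaks per length, as the outer parts then differ in length. By count the left part then held more peaks than the right part (193 and 179). By construction that merging leaves fewer peaks. The cause of these shifts was not tested. Leaving out a replicate (the strongest 4966 peaks of the other one) gave middle-part ratios of 1.18 to 1.18, left-to-right ratios of 0.61 to 0.67, ratios among the 100 strongest of 1.31 to 1.47 and 61 to 73 runs. Among the 10 strongest, the chromosome II ratio was 3.0, with no test. Sites found in both replicates were 83.8% under a reciprocal overlap of 50% and 98.6% within the stronger 50% of each replicate list. Runs numbered 21 with gaps up to 2 kb, 116 with gaps up to 20 kb and 10 among the stronger 50%. No paired analysis was possible because no peak list of an input was used, so nothing could be paired by replicate number. Depth was unknown throughout, so the error of a rank is unknown.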
